A study of Sus scrofa with 16 samples.

Results

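The regions described here were the methylation peaks in the interior of pig chromosomes 10 and 12, that is, the peaks whose midpoint lay more than 5 Mb from position 1 and more than 5 Mb from the largest peak end seen on that chromosome in any list. They numbered 68546 of the 1159046 peaks (5.91%) in the 4 deposited lists, with 39857 on chromosome 10 and 28689 on chromosome 12. By list, they were 16833 of 280678 peaks in TH and 17000 of 287224 in YH, with 15205 of 259066 in TL and 19508 of 332078 in YL. These chromosomes were selected on the measured peak density itself. Their density is therefore given as a description, and it was not tested.

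The hearts came from 16 castrated boars aged 6 months, 4 in each group. TH were Tibetan pigs and YH Yorkshire pigs raised at highland, and TL were Tibetan pigs and YL Yorkshire pigs raised at lowland. For YH and TL, the place of rearing was not the breed's own, and these pigs were the offspring of stock brought in and kept there. Each list joined the peaks of 1 group without animal names, so the lists gave no replicates and the spread between animals could not be measured. No base lay under more than 4 peaks of 1 list, and 4 overlapping peaks are therefore read below as 1 peak from each of the 4 animals, which is an inference from the lists and not a label. Whole heart holds several cell types, and methylation in more cells and stronger methylation per cell cannot be told apart. Total read numbers are not in the lists, and the lists differed in size, with most peaks in YL and fewest in TL.

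Most methyl groups on mammalian DNA sit where a C is followed by a G, and maintenance methyltransferases copy them to the new strand when cells divide. Methylated DNA immunoprecipitation (MeDIP) pulls down sonicated fragments with an antibody against 5-methylcytosine, so a peak marks a stretch where such fragments pile up, and both the methylation and the number of such CpG sites in the stretch contribute to it. Pig chromosome 12 corresponds largely to human chromosome 17, which is rich in genes, whereas pig chromosome 10 holds segments related to several human chromosomes.

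The interior of chromosome 10 spanned 69.1 Mb and that of chromosome 12 spanned 53.6 Mb. On chromosome 10 there were 139 peaks per Mb in TH and 144 in YH, with 129 in TL and 164 in YL. On chromosome 12 there were 134 peaks per Mb in TH and 131 in YH, with 118 in TL and 152 in YL. The interiors of the other 16 autosomes together held 100 peaks per Mb for TH, 103 for YH, 93.8 for TL and 120 for YL. Chromosome 10 thus held 1.37 to 1.41 times, and chromosome 12 held 1.26 to 1.34 times, the density of the other autosomes in the same list. Chromosome 10 ranked first of the 18 autosomes in all 4 lists, while chromosome 12 ranked second in TH and YL and behind chromosome 18 in YH and TL.

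**Figure D1:**
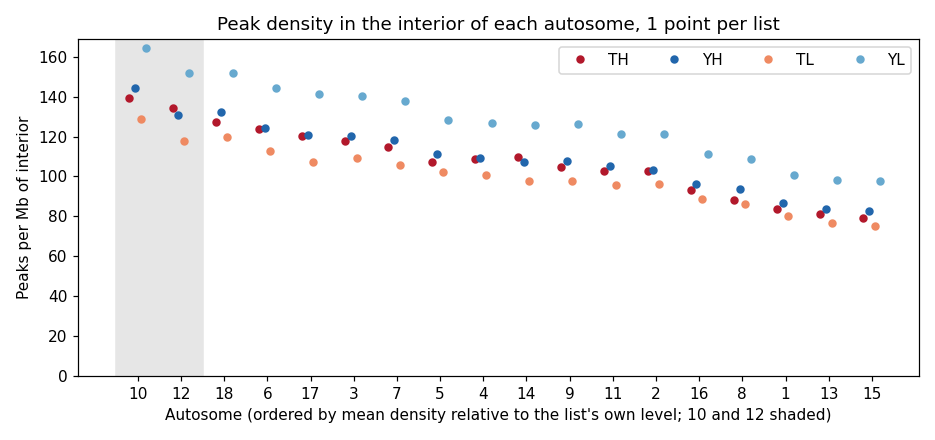
Peaks per Mb in the interior of each of the 18 autosomes (x axis, ordered by density relative to the list's own level), with 1 point per list and chromosomes 10 and 12 shaded. Chromosome 10 had the highest point of each list, and chromosomes 12 and 18 lay close together below it.

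Just outside the choice of chromosomes lay chromosome 18, with 1.27, 1.29, 1.28 and 1.27 times the mean density of the 16 autosomes to which it belongs in TH, YH, TL and YL. Chromosome 12, just inside, had 1.34, 1.28, 1.26 and 1.27 times, so these neighbours were hardly apart in YH, TL and YL. Chromosome 15 was the least dense in each list, with 74.9 peaks per Mb in TL and 97.9 in YL. When overlapping peaks of a list were merged to 1 region, which removes the part of density that comes from several animals sharing a site, chromosome 10 still ranked first, with 66.4 to 77.0 regions per Mb against 50.7 to 58.4 on the other autosomes.

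The outer 5 Mb that the choice left out behaved differently on the 2 chromosomes. At the start of chromosome 10 the last Mb outside the interior held 49 peaks in TH and 72 in YH, with 61 in TL and 79 in YL. The first Mb inside held 166 peaks in TH and 183 in YH, with 155 in TL and 177 in YL. On chromosome 12 the outer 5 Mb were denser than the interior at both ends, with 186 and 172 peaks per Mb in TH and 203 and 182 in YL. On chromosome 10 they held 125 to 161 peaks per Mb at the start, near the density of the interior, and 95.6 to 118 at the far end, below it in every list. The ends of chromosome 12 thus stood above the mean of its interior, although single interior bins were denser still.

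Density was uneven along both interiors. A bin of 1 Mb was called dense when it held at least 1.5 times the list's mean density over the interiors of all 18 autosomes, and poor when it held less than 0.5 times. Of the 122 whole bins, 31 were dense in all 4 lists, 20 of 69 on chromosome 10 and 11 of 53 on chromosome 12. On the other autosomes, 177 of 2137 bins (8.28%) were dense in all 4 lists, and over all 18 autosomes the share was 9.21%. Only 8 of the 122 bins (6.56%) were poor in all 4 lists, beside 16.9% over all 18 autosomes. These shares follow from the choice of the chromosomes by density and support nothing beyond it.

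The dense bins of chromosome 10 lay in several stretches on both sides of its middle. The longest unbroken stretch ran from 7 to 14 Mb and held 197 peaks per Mb for TH, 194 for YH, 172 for TL and 218 for YL. Further stretches lay at 17 to 20 Mb and 24 to 26 Mb. The remaining 8 dense bins lay beyond 51 Mb, mostly as single bins. By the sum of the 4 density ratios, the 3 densest bins of chromosome 10 were neighbours within the longest stretch, although in single lists other bins ranked among the first 3. The bin at 10 to 11 Mb held 226 peaks in TH and 209 in YH, with 191 in TL and 238 in YL. The bin at 11 to 12 Mb held 206, 213, 188 and 251 peaks in the same order, and the bin at 9 to 10 Mb held 218, 213, 198 and 222. SPATA17, a gene named for an association with spermatogenesis, lay in this stretch.

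On chromosome 12 no dense stretch was longer than 2 Mb. Dense bins lay at 9 to 11 Mb and 20 to 22 Mb, with single bins at 12, 15, 18, 23, 40, 44 and 48 Mb. The densest by the same sum, at 9 to 10 Mb, held 195 peaks in TH and 192 in YH, with 199 in TL and 234 in YL. It was followed by the bin at 48 to 49 Mb, with 204, 201, 194 and 216 peaks, and by the bin at 21 to 22 Mb, with 194, 205, 175 and 207 peaks. FKBP10, which encodes a chaperone of collagen folding in the endoplasmic reticulum, lay in the bin at 21 Mb, and the signal transducer STAT5B lay in the dense bin beside it.

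**Figure D2:**
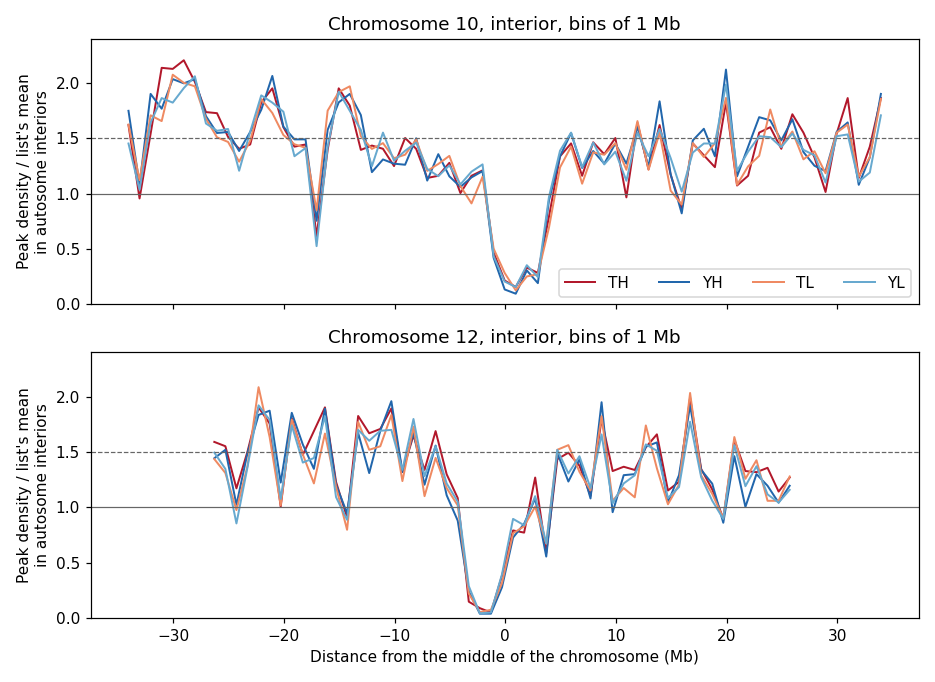
Peak density in bins of 1 Mb (y axis, as a multiple of the list's mean over autosome interiors) against the distance of the bin from the middle of the chromosome (x axis, Mb), with 1 line per list. The solid line marks 1 and the dashed line 1.5, and the 4 lists rose and fell together, with a trough at the middle of both chromosomes.

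Each chromosome had 1 stretch of 4 Mb that was poor in all 4 lists, and both stretches held the middle of their chromosome. From 39 to 43 Mb on chromosome 10, the density was 25.2 peaks per Mb for TH, 19 for YH, 22.2 for TL and 29.2 for YL. From 28 to 32 Mb on chromosome 12 it was 17, 15.5, 15.8 and 23.5 peaks per Mb. The lowest bins were at 40 to 41 Mb on chromosome 10, with 10 to 19 peaks per list, and at 30 to 31 Mb on chromosome 12, with 4 to 7. The next lowest, at 39 to 40 Mb and at 29 to 30 Mb, held 14 to 27 and 4 to 9 peaks. The longest stretch without a peak of any list lay inside the poor stretch of chromosome 12, at chr12:29649332-30387907 (738576 bp, Sscrofa10.2). On chromosome 10 it lay elsewhere, at chr10:67306974-67605848 (298875 bp). The sequence under these gaps was not examined here.

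The 4 lists gave nearly the same profile. Across the 69 bins of chromosome 10, Pearson's r between the densities of 2 lists was 0.946 to 0.962, and Spearman's rho was 0.910 to 0.933. Across the 53 bins of chromosome 12, r was 0.955 to 0.971 and rho was 0.923 to 0.956. All bins share the genome assembly and its base composition, neighbouring bins are not independent, and these values are descriptions. In the median bin, the highest of the 4 density ratios was 1.16 times the lowest, beside 1.19 times on the other autosomes.

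Peaks of these interiors were longer and held more tags than those of other autosomes, with lower fold enrichment. A tag is a mapped read in the peak, and the fold enrichment is the ratio of the peak's tags to the local background that the peak caller expected. Median peak length on chromosome 10 was 1150 bp in TH and 1211 in YH, with 1108 in TL and 1224 in YL, and on chromosome 12 it was 1206, 1284, 1152 and 1301 bp. The other autosomes had medians of 902 to 997 bp. Chromosome 12 ranked first and chromosome 10 second of the 18 autosomes in median length in every list.

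Median tags per peak were 34 in TH and 37 in YH, with 32 in TL and 38 in YL on chromosome 10. On chromosome 12 they were 36, 40, 34 and 41 tags, against 25, 27, 23 and 28 on the other autosomes. The order of the lists was the same on both chromosomes, with TL lowest and YL highest. Part of the excess in tags went with length, since the median number of tags per kb of peak was 28.6 to 31.5 here and 26.2 to 28.5 on the other autosomes. Peaks of at least 3000 bp made up 4.39% of peaks for TH, 5.38% for YH, 3.23% for TL and 5.56% for YL on chromosome 10, and 5.20%, 6.95%, 4.07% and 7.65% on chromosome 12. The other autosomes had 1.92%, 2.47%, 1.53% and 2.84%. In TH the 95% Wilson intervals were 4.002% to 4.82% for chromosome 10, 4.72% to 5.74% for chromosome 12 and 1.87% to 1.98% for the other autosomes. These intervals, like all those given here, cover counting error only, and the spread between animals is not known. Overlapping peaks of a list are counted singly, so intervals on peaks are too narrow.

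Fold enrichment ran the other way. Its median was 7.49 in TH and 6.51 in YH, with 6.92 in TL and 6.78 in YL on chromosome 10, and 7.04, 6.12, 6.64 and 6.38 on chromosome 12. On the other autosomes it was 8.56, 7.51, 8.10 and 7.74. In every list chromosome 12 had the lowest median of the 18 autosomes and chromosome 10 the second lowest.

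**Figure D3:**
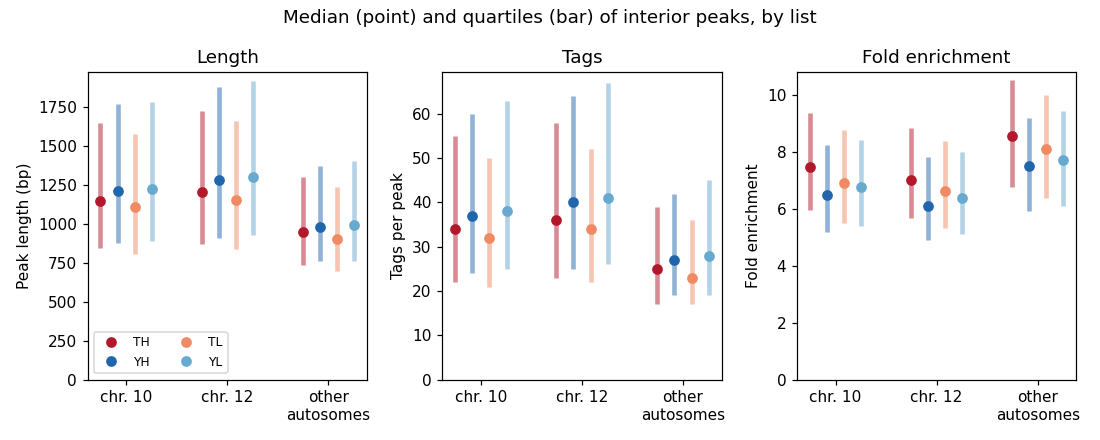
Median (point) and quartiles (bar) of peak length (bp), tags per peak (count) and fold enrichment (ratio) for chromosome 10, chromosome 12 and the other autosomes, by list. In each list the median length and tags were higher, and the median fold enrichment lower, on chromosomes 10 and 12 than on the other autosomes.

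Dense and poor bins within the interiors differed in the same direction. In the 31 dense bins, the median peak was 1260 bp long with 39 tags in TH, 1344 bp with 44 in YH, 1234 bp with 37 in TL and 1355 bp with 46 in YL. In the 8 poor bins, it was 761 bp with 16 tags in TH, 752 bp with 18 in YH, 678 bp with 16 in TL and 778 bp with 19 in YL. Median fold enrichment was 6.07 to 7.06 in the dense bins and 9.21 to 10.6 in the poor ones. No peak of the poor bins reached 3000 bp, whereas 4.68% to 7.53% of those in the dense bins did. The poor bins held only 138 to 211 peaks per list. Across the bins of chromosome 10, density and median fold enrichment had Pearson's r of -0.76 in TH, -0.71 in both YH and TL, and -0.70 in YL, with rho from -0.69 to -0.58. On chromosome 12 the values were weaker, with r from -0.59 to -0.53 and rho from -0.30 to -0.25. Density and median length had r of 0.53 to 0.61 on chromosome 10 but 0.19 to 0.25 on chromosome 12, and density and median tags had r of 0.48 to 0.58 and 0.16 to 0.26.

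Because the peaks were both more frequent and longer, they covered a larger part of these chromosomes. Peaks covered 10.7% of the interior of chromosome 10 in TH and 10.6% in YH, with 9.21% in TL and 12.2% in YL. On chromosome 12 they covered 10.9%, 10.5%, 9.06% and 12.3%, and on the other autosomes 6.50%, 6.40%, 5.74% and 7.51%. The 2 chromosomes held the first and second rank of the 18 in each list, changing places between lists. Peaks of any list covered 18.4% of chromosome 10, 18.5% of chromosome 12 and 11.7% of the other autosomes.

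Recurrence within a list was close to that of other autosomes, with some excess on chromosome 10. Of the covered bases of chromosome 10, 5.64% lay under 4 peaks of the list for TH, 14.6% for YH, 10.7% for TL and 13.6% for YL. On chromosome 12 these shares were 5.62%, 13.3%, 8.99% and 11.9%, and on the other autosomes 5.42%, 12.3%, 8.98% and 11.8%. Chromosome 10 ranked first of 18 in YH and TL, second in YL and sixth in TH, while chromosome 12 ranked between 6 and 10. The excess was not particular to chromosome 10. Chromosome 11, outside the choice, ranked first in TH with 6.59% and in YL with 14.1%. Chromosome 18 ranked second in YH with 14.2% and in TL with 10.4%. The lists differed far more from each other than the chromosomes did, since TH had the lowest share under 4 peaks on every set of chromosomes and YH the highest. The share under a single peak was 50.9% in TH and 47.6% in YH, with 53.7% in TL and 47.2% in YL on chromosome 10. The sequencing depth of single animals is not in the lists.

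**Figure D4:**
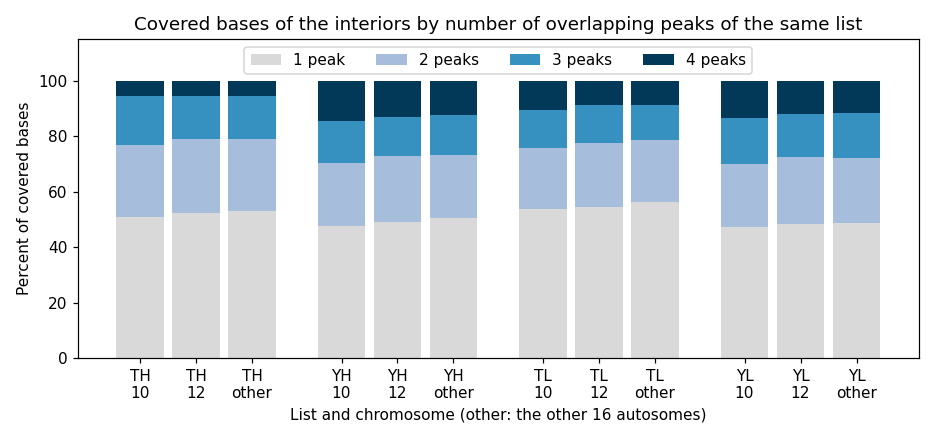
Percent of covered bases (y axis) under 1, 2, 3 and 4 overlapping peaks of the same list, for chromosome 10, chromosome 12 and the other autosomes in each list (x axis). The share under 4 peaks was smallest in TH, 5.42% to 5.64%, and largest in YH, 12.3% to 14.6%.

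With the peaks of the 4 lists joined, chromosome 10 had 7889 merged regions and chromosome 12 had 5742. On chromosome 10, 2447 regions (31.0%) held peaks of all 4 lists and 2258 (28.6%) were a single peak of 1 list. On chromosome 12 there were 1810 (31.5%) and 1624 (28.3%). Of the covered bases, 25.6% on chromosome 10 and 25.3% on chromosome 12 were covered in all 4 lists, beside 23.1% on the other autosomes. Bases under a single peak of any list made up 32.1% and 32.0%, beside 34.0% on the other autosomes. Some base lay under 16 peaks, 4 of each list, in 167 regions of chromosome 10 and 109 of chromosome 12. Bases under 16 peaks made up 1.28% and 1.17% of the covered bases, and 1.07% on the other autosomes.

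The region with the most tags among these was chr10:21603332-21608104, 4773 bp, with 4 peaks in each list. Its peaks held 724 to 1522 tags in TH and 1555 to 1788 in YH, with 1179 to 1752 in TL and 1073 to 1403 in YL. On this raw scale, which is not corrected for depth, the YH values lay above the TH and YL values, but overlapped those of TL. Such counts stood far above the median of 32 to 41 tags, with a fold enrichment of 7.79 to 10.1. The region lay 4.90 kb from the window that the study placed in the promoter of SCCPDH, which encodes a saccharopine dehydrogenase-like oxidoreductase. The next, chr10:17593788-17597426, held 266 to 556 tags for TH, 124 to 531 for YH, 146 to 539 for TL and 347 to 493 for YL, and its groups overlapped. After it, chr10:73361876-73366487, held 69 to 242 tags in TH and 156 to 200 in YH, with 138 to 188 in TL and 89 to 201 in YL. The longest region, chr10:18262847-18268025 (5179 bp), held 62 to 303 tags in TH, and the YH, TL and YL peaks lay within that range.

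On chromosome 12 the region with the most tags was chr12:20161291-20167248, 5958 bp, with 4 peaks in TH, YH and YL but 5 in TL. It held 77 to 342 tags in TH and 206 to 305 in YH, with 45 to 256 in TL and 179 to 357 in YL. It was followed by chr12:51249589-51255099, with 86 to 215, 126 to 325, 176 to 293 and 76 to 315 tags in the same order. In both, the 4 groups overlapped. The last of these differed in shape from the rest. At chr12:53588117-53589652, only 1536 bp long, the TH peaks held 130, 229, 211 and 234 tags and the TL peaks 235, 282, 198 and 230. The YH peaks held 463, 36, 222 and 60 tags, and the 5 YL peaks 286, 19, 245, 23 and 20. Thus all Tibetan peaks held at least 130 tags, whereas the Yorkshire peaks split into tall and low ones in both locations. Fold enrichment was 13.2 to 16.7 in TH and 16.7 to 20.1 in TL, and 7.02 to 15.4 in YH and 6.05 to 16.3 in YL. The region was picked by a rule on summed tags and this contrast was noticed afterwards, so it carries no test. The longest region, chr12:58010092-58017159 (7068 bp), lay 152 kb from the window listed in MYH1, a fast skeletal myosin heavy chain gene.

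Overlap between groups was higher in these interiors than elsewhere. Of the TH peaks, 75.6% shared at least 1 base with a YH peak, and of the YH peaks 80.0% met a TH peak, beside 73.6% and 76.9% on the other autosomes. Of the TL peaks 82.7% met a YL peak, and of the YL peaks 74.1% met a TL peak, beside 79.5% and 71.4%. Between locations, 74.6% of TH peaks met a TL peak and 81.4% of TL peaks met a TH peak, beside 72.8% and 77.2%. For the Yorkshire pigs, 86.5% of YH peaks met a YL peak and 80.2% of YL peaks met a YH peak, beside 84.7% and 78.1%. The excess was 1.75 to 4.19 percentage points in all 8 directions. The 95% Wilson interval of TH peaks meeting YH peaks was 74.96% to 76.3% here and 73.4% to 73.8% elsewhere, and in no direction did the 2 intervals overlap. Overlapping peaks of a list share a site but are counted singly, so these intervals are too narrow and serve as no test. Longer peaks and more covered sequence moved with this excess, and their part in it was not tested.

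Set by bases, the shared part of the union of 2 lists (Jaccard index) was 0.467 for TH and YH, 0.453 for TL and YL, 0.464 for TH and TL, and 0.526 for YH and YL. The other autosomes had 0.444, 0.430, 0.439 and 0.504. The order of the 4 pairs was the same in both, with the Yorkshire lists closest. Peaks that met all 3 other lists made up 61.8% of TH, 66.6% of YH, 68.2% of TL and 61.3% of YL. On the other autosomes these shares were 58.7%, 62.5%, 62.9% and 57.0%. Those that met no other list made up 9.14%, 6.14%, 7.46% and 7.61%, beside 10.25%, 6.94%, 9.31% and 9.18% on the other autosomes. The shared peaks were the larger ones. Peaks met by all 3 other lists had median tags of 39 for TH, 44 for YH, 37 for TL and 46 for YL, against 25, 23, 20 and 27 in peaks met by none. The same held on the other autosomes, with 28, 31, 27 and 33 tags against 18, 18, 16 and 19.

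Differences between groups were sought in windows of 500 bp, as windows with 4 peaks of 1 list and 0 of the other over the middle base. They were read against all windows with exactly 4 peaks of the 2 lists together. Each list enters 2 comparisons, so the comparisons are not independent. In TH vs. YH, 44 windows had 4 TH and 0 YH peaks and 148 had 4 YH and 0 TH peaks, of 3281, which is 1.34% and 4.51%. Over the whole length of the 18 autosomes, ends included, the shares were 1.15% and 4.43%, and in the interiors of the other 16 they were 1.22% and 4.60%. In TL vs. YL, 23 windows had 4 TL and 0 YL peaks (0.730%) and 238 had the reverse (7.55%), of 3151, and the autosomes gave 1.01% and 7.77%. In both pairs the Yorkshire list held more such windows, at shares near those of all autosomes. The Yorkshire list of each pair also had the larger share of bases under 4 peaks, and the part of this in the counts was not tested.

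In TH vs. TL, 31 windows had 4 TH and 0 TL peaks and 31 the reverse, of 2961, which is 1.05% in each direction beside 1.22% and 1.32% over the autosomes. In YH vs. YL, 38 windows had 4 YH and 0 YL peaks (1.15%) and 63 the reverse (1.90%), of 3310, beside 0.745% and 2.33%. In 7 of the 8 directions the 95% Wilson interval for chromosomes 10 and 12 overlapped that for the other autosomes. The exception was 4 YH against 0 YL, with an interval of 0.838% to 1.57% here and 0.574% to 0.745% on the other autosomes. Chromosome 12 held 21 of 1499 windows (1.401%, interval 0.918% to 2.13%) and chromosome 10 held 17 of 1811 (0.939%, 0.587% to 1.498%), and the difference between the 2 chromosomes was not tested. Joined windows share peaks, so these intervals are too narrow. In the other directions the shares stood near the background.

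**Figure D5:**
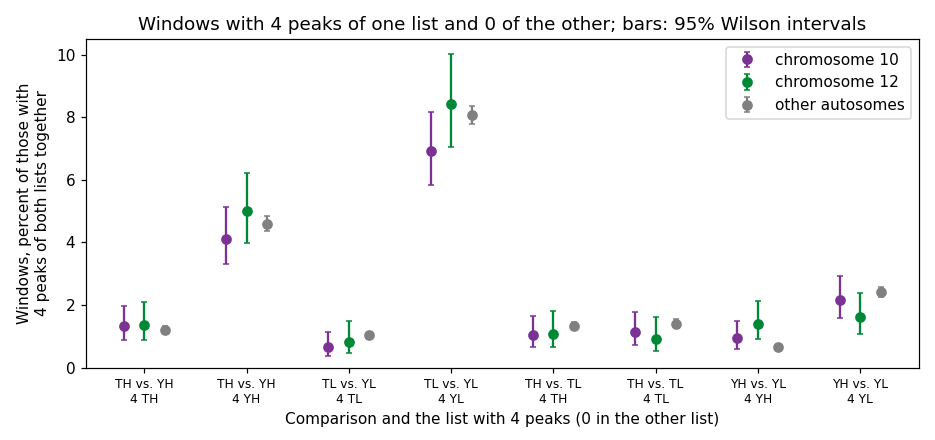
Windows with 4 peaks of 1 list and 0 of the other, as percent of windows with exactly 4 peaks of both lists together (y axis), for the 4 comparisons and both directions (x axis), with 95% Wilson intervals. The share with 4 YL and 0 TL peaks was the highest, 6.92% on chromosome 10, 8.41% on chromosome 12 and 8.08% on the other autosomes.

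The called windows joined into short runs. The longest with 4 TH and 0 YH peaks, 1 of 2 of equal length, was chr10:10063501-10066500, inside the longest dense stretch of chromosome 10, where the TH peaks held 104, 226, 129 and 295 tags and TL and YL had 1 peak each, of 158 and 124 tags. The longest with 4 YH and 0 TH peaks was chr12:58465001-58468500, where the YH peaks held 177, 154, 161 and 151 tags, TL had 1 peak of 141 and YL had 2 of 180 and 210. Both runs separated 1 list from its partner while the lowland lists held peaks too.

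At chr10:69200001-69202500, TL had 4 peaks of 160, 121, 139 and 163 tags and YL none, but TH had 3 peaks of 88 to 200 tags and YH 3 of 145 to 179. YL was the list without peaks there. At chr12:5482501-5485500 it was TL that had none, while YL had peaks of 201, 249, 164 and 129 tags, YH had 4 of 121 to 292 and TH had 1 of 158. A run between the Tibetan lists, chr12:47233001-47234500, held TH peaks of 76, 77, 49 and 26 tags and no TL peak, while YH had 3 peaks of 64 to 73 tags and YL had 1 of 91. The reverse, chr12:13856501-13858500, held TL peaks of 106, 74, 87 and 66 tags and no TH peak, with 3 YH peaks of 80 to 99 tags and 1 YL peak of 93.

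Between the Yorkshire lists, chr10:15140001-15141500 held YH peaks of 44, 44, 42 and 36 tags and no YL peak, while TH had 1 peak of 31 tags and TL had 2 of 41 and 48. It was 1 of 2 runs of this length. In the opposite direction, chr12:27497501-27499500 held YL peaks of 126, 102, 75 and 88 tags and no YH peak, while TH had peaks of 79, 79, 63 and 33 tags and TL had 3 of 37 to 80. YH was the list without peaks there. This run lay 5.50 kb from the window placed in the promoter of NME2, a nucleoside diphosphate kinase.

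The part of the study's table of differential windows that was used here placed 108 windows at 43 genes in these interiors, 89 of them in introns and 10 in promoters. The table was held only in part, so these are not the study's totals. On chromosome 10, 59 windows came from TL vs. YL, 19 from TH vs. YH and 6 from both, whereas the 24 on chromosome 12 all came from TH vs. YH, and the other comparisons gave none. The windows are used here as locations. Since the study chose them on the same libraries, their direction is not independent evidence. Of the 108 windows, 33 lay under a TH peak at the middle base, 39 under a YH peak, 19 under a TL peak and 47 under a YL peak, while 44 lay under no peak of any list. Of all bases of the 2 interiors, peaks covered 10.8% in TH, 10.5% in YH, 9.15% in TL, 12.3% in YL and 18.5% in any list, so the windows lay under peaks more often than a base at large. The study had chosen them as differing in signal between these libraries, and nothing is read from the excess. Of 107 windows in whole bins, 22 lay in bins dense in all 4 lists, at 14 genes, beside 31 of 122 bins (25.4%) that were dense.

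The genes were sorted into groups by hand. Kinases, adaptors and other genes of signalling, adhesion and membrane traffic, among them ITGB1, RAB5C and WIPI1, had 30 windows at 10 genes, and 15 of these windows had no peak in any list. CAMK1D, a calcium/calmodulin-dependent kinase, had 6 windows. At chr10:64960501-64961000, YH had 4 peaks of 52 to 92 tags, YL had 4 of 53 to 98, TH had 1 of 41 and TL had none. The Yorkshire lists were thus high and the Tibetan lists low at this window in both locations. At another, chr10:64922501-64923000, TH had 3 peaks of 16 to 36 tags, YH and YL had 1 each and TL had none. PIP4K2A, a phosphatidylinositol phosphate kinase, had 8 windows, and 7 of them had no peak. At the other, chr10:57989501-57990000, TH, TL and YL had 2 peaks each and YH had 3. Of the 5 windows of GDI2, which keeps Rab GTPases in their inactive form, 3 lay under the same TH peak of 108 tags and the others under none. PITPNC1, a phosphatidylinositol transfer protein, had 3 windows with 1 YH peak of 106 tags among them.

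At the window of STAT5B, a cytokine-activated transcription factor, chr12:20749501-20750000, TH had 1 peak of 24 tags, TL had 2 of 13 and 15, YL had 2 of 20 and 26, and YH had none. No list had a peak at the window of GRB2, an adaptor that links growth factor receptors to Ras, at chr12:5874501-5875000. The peaks at the STAT5B window were low, below the median number of tags of their lists.

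Muscle and lineage factors had 34 windows at 6 genes, of which 19 had no peak in any list. SMYD3, a lysine methyltransferase, had 18 windows over 619 kb. Only 1 of these, chr10:21131501-21132000, had 4 peaks of a list, in YL with 48 to 112 tags, while TH had 2, YH 1 and TL none. NR5A2, an orphan nuclear receptor, had 11 windows, none with more than 2 peaks of a list. At LEFTY2, which encodes a TGF-beta family regulator of left-right asymmetry, YH and YL had 2 peaks each at 1 of 2 windows and the Tibetan lists had none. TNNI1, the slow skeletal troponin I, had 2 YL peaks of 55 and 97 tags and no others.

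Genes of metabolism and mitochondria had 11 windows at 8 genes, and 10 of these windows had a peak in some list. SCCPDH held the most recurrent window of the list. At chr10:21663001-21663500, TH had 1 peak of 17 tags, YH had 4 of 33 to 58, TL had 4 of 24 to 38 and YL had 4 of 37 to 42. TH was the low list there. At chr10:21665501-21666000 both Tibetan lists had 1 peak, YH had 4 and YL had 3, and at the promoter window, chr10:21613001-21613500, the Tibetan lists had none and the Yorkshire lists 2 each. EPHX1, the microsomal epoxide hydrolase, had 2 YH and 3 YL peaks and no Tibetan ones, and the neighbouring gene TMEM63A shared that stretch. ADSS, an adenylosuccinate synthase of purine synthesis, had 1 YL peak of 67 tags. At the promoter window of NME2, chr12:27505001-27505500, TH had 3 peaks of 39 to 72 tags, TL had 2 of 21 and 48, YL had 3 of 36 to 70 and YH had none, the same list that was without peaks in the run beside it. NME2, TMEM63A, SPATA17 and FKBP10 fell outside the rule for named genes and were named after their values were seen.

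Genes of immune cells, namely MRC1, DDX58, DHX58 and DCLRE1C, had 7 windows. The first 3 encode receptors or RNA sensors and the last a recombination enzyme. The window of DCLRE1C, the Artemis nuclease of V(D)J recombination, was covered in all 4 lists, at chr10:51579001-51579500. TL had 4 peaks of 80 to 118 tags, TH had 2 of 92 and 166, YH had 2 of 124 and 131 and YL had 1 of 134. MRC1, the macrophage mannose receptor, had 1 peak each in TH, YH and TL and 2 in YL at 1 of its 3 windows. DDX58, the RNA sensor RIG-I, had 1 YH peak of 25 tags and 1 TL peak of 36 tags over 2 windows. The remaining 15 genes had 26 windows, of which 8 lay under a TH peak, 12 under a YH peak, 4 under a TL peak and 17 under a YL peak.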

How the data were processed

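Heart DNA of 16 pigs was measured by MeDIP-seq with single-end reads, cleaned with FASTX, mapped with Bowtie to Sscrofa10.2 and passed to MACS, which called peaks at a minimum DiffScore. For each group, 1 peak list was deposited, with the peaks of its animals joined and unnamed. Tags are a raw count, deposited as the peak caller gave it, and the fold enrichment is a ratio deposited by the authors from the same caller. Tags are not scaled for sequencing depth, so a difference in tags between lists also holds any difference in depth. The fold enrichment is relative to the local background that the caller expected, and how far it depends on depth was not tested. The end column of the TH list was empty for 100907 peaks (5974 of these in the interiors), and the end was taken from the field that joins chromosome, start and end.

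Chromosome length was taken as the largest peak end of any list (79101116 bp for chromosome 10 and 63587673 bp for chromosome 12). Densities, merged regions, covered bases, overlaps of at least 1 bp, bins of 1 Mb and windows of 500 bp (read at base 250) were computed with Python 3.11.15, NumPy 2.4.6 and pandas 2.3.3, and drawn with Matplotlib 3.10.9. The counting was checked on simulated peaks with known positions. No test was made, because each group had 1 list and because density chose the members. Shares carry 95% Wilson intervals.

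Regions were named by rule: the 3 densest and 2 poorest bins of each chromosome (by the sum of the 4 lists' density ratios), the 3 regions with the most tags and the longest region under 4 peaks of each list, the longest peak-free stretch, and the longest run of windows with 4 peaks against 0 in each direction. Where runs tied, the first was taken. Genes were named from the part used here of the study's table of differential windows, which served for locations and elements only. Its fold changes and p-values were not used. Within a named group of genes, 2 to 4 with the most windows were described, ties being taken by chromosome and position, the remaining genes were to be given by counts, and GRB2 and STAT5B were described in any case. The values of 1 further gene that the rule names are not reported here. Of 43 symbols, 40 were in a RefSeq gene table. No genome of this build was used here, so no sequence is shown. The members and lists were chosen with earlier results of these data known.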

Additional observations from a re-analysis of the deposited data

How the results depend on the processing

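The density ratio stayed above 1 under each alternative. Recurrence, tags and overlap were not recomputed on the other autosomes, and the windows were counted over both directions together. Beside ratios of 1.37 (TH), 1.35 (YH), 1.32 (TL) and 1.33 (YL) for the density of both interiors over that of other autosomes, merging overlapping peaks gave 1.33, 1.29, 1.27 and 1.29, at least 20 tags gave 1.69, 1.61, 1.71 and 1.56, and covered bases gave 1.66, 1.64, 1.59 and 1.63. Leaving out 10 Mb at each end gave 1.35 in YL. The 31 Mb dense in all 4 lists fell to 0 at a limit of 2 times, and merging left 21. Without 1 list in turn it was 32 to 35. The share under 4 peaks (5.63%, 14.0%, 9.93% and 12.8%) was 5.14%, 14.1%, 9.97% and 12.5% at 20 tags and 5.51%, 13.6%, 9.86% and 12.7% at 10 Mb. Median tags (35, 38, 33 and 40) were 33, 36, 31 and 37 at 10 Mb, and with the highest tags of merged regions 36 in TH and 42 in YL. Overlap of 50% of both peaks gave 70.9% (TH in YH), 75.8% (YH in TH), 77.0% (TL in YL), 68.8% (YL in TL), 70.3% (TH in TL), 76.9% (TL in TH), 83.1% (YH in YL) and 76.5% (YL in YH). At 20 tags, the shares that moved were 76.5% (TH in YH), 85.4% (TL in YL), 71.5% (YL in TL), 83.2% (TL in TH) and 87.6% (YH in YL). With 3 or more peaks against 0, windows in both directions together rose from 192 to 1158 (TH vs. YH), from 261 to 1493 (TL vs. YL), from 62 to 776 (TH vs. TL) and from 101 to 804 (YH vs. YL), as a wider limit admits more windows. In all, 45 values moved beyond their limit. The other 22, among them the 21 Mb and those without 1 list, stayed within their interval or within 1.5 times. The causes were not tested.

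No paired analysis was possible because the lists carry no animal names, and leaving out single animals was not possible for the same reason. Depth per animal, mappability and CpG content were not measured here.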

Other observations

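The few peaks left in the poorest bin of chromosome 12, at 30 to 31 Mb, were not small. They numbered 5 in TH and 4 in YH, with 7 in TL and 6 in YL, with median tags of 52, 80.5, 66 and 71 and median lengths of 1621, 1928, 1715 and 1654 bp. The bin beside it, at 29 to 30 Mb, held 9, 4, 5 and 5 peaks with median tags of 17, 17, 15 and 19. At a handful of peaks per list these values are single observations. The first whole bin of chromosome 10, at 5 to 6 Mb, was dense in 3 of the lists with median tags of only 19 to 24, so density and tags per peak parted there.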
